A study of Mus musculus with 88 samples.

Results

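The comparison described here set RAW 264.7 cells given lipopolysaccharide (LPS) plus prostaglandin E2 (PGE2) for 2 h against cells given LPS alone for 2 h. RAW 264.7 is an established mouse macrophage line. The comparison covers 12 of the 88 arrays of the series, 6 per group, chosen by their labels. Cells of the combined group had 100 ng/ml LPS with 10 µM PGE2, and cells of the LPS group had 100 ng/ml LPS with 100 pM lipid binding protein. The labels name lipid binding protein for LPS alone only, so the effects of PGE2 and of this protein cannot be told apart in the comparison. On each array, RNA of treated cells was hybridised against RNA of cells kept in medium for 2 h, so all values are log2 ratios to medium and no expression level was measured. A group held 3 numbered sets, each of 2 arrays with the dyes exchanged, and the mean of the 2 arrays was 1 replicate (n = 3 per group). The labels do not say whether sets were separate cultures, so p-values measure only how far sets differed. That spread was pooled over the 44 pairs of all 15 groups of the series, and it may be technical in origin. Other arrays used below carried LPS plus isoproterenol (ISO, 50 nM), PGE2 alone (10 µM), and LPS with and without PGE2 at 1 and 4 h.

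LPS is sensed by Toll-like receptor 4, which switches on NF-kB, MAP kinases and interferon regulatory factors and with them cytokine, chemokine and immediate early genes. PGE2 is a lipid mediator that macrophages make through cyclooxygenase 2, the product of Ptgs2. In macrophages it acts mainly on the receptors EP2 and EP4, encoded by Ptger2 and Ptger4, which raise cyclic AMP and through it activate protein kinase A and the transcription factor CREB. PGE2 is known in macrophages for lowering the output of tumour necrosis factor and raising that of interleukin 10.

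Of 9 macrophage marker genes with a probe, Adgre1, Csf1r, Cd68, Fcgr1, Msr1, Tyrobp and Spi1 had values on all 12 arrays, and the differences of the 9 genes between the groups lay between −0.25 and 0.12. For 22 markers of other cell types the median difference was 0.00. Ratios do not show whether such a gene was expressed. Between 17.81 and 45.67% of the probes on the 12 arrays were listed at exactly 0. Such values are called not measured below but were kept as 0 in all means and fits, except where they are said to be taken as missing. Lists below count genes with a probe that held any value in the series. Some list members were at 0 on all 12 arrays. Both arrays of LPS plus PGE2 set 1 stood apart, with 43.12 and 45.67% of probes at 0, and the share on the other 10 arrays was 17.81 to 34.6%. The 2 arrays of a set, after turning, correlated across probes at 0.346 to 0.636 for LPS plus PGE2 and at 0.428 to 0.724 for LPS. Sets of the same number deviated together from their group means (r = 0.398, 0.443 and 0.485 for sets 1, 2 and 3), and the fit paired sets by number.

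Few genes could be told apart between LPS plus PGE2 and LPS at 2 h. Of 10518 genes tested, 3 passed an adjusted p of 0.05 in limma (0.0285%), all 3 higher with LPS plus PGE2: Lca5, Pip4p2 and Fam98a. Without adjustment, 245 genes (2.33%) were higher and 322 (3.06%) lower at p under 0.05. The median 95% interval of a gene reached 0.185 log2 units to either side of its difference, and for 10443 genes (99.3%) the whole interval lay within 1 log2 unit of no difference, a 2-fold change. These counts include genes listed at 0 on most arrays. Among the 7431 genes measured on at least 10 of the 12 arrays, the median reach was 0.186 log2 units and 99.2% of the intervals lay within 1 log2 unit. Changes in RNA per cell and in the number of cells cannot be told apart in such bulk RNA.

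**Figure D1:**
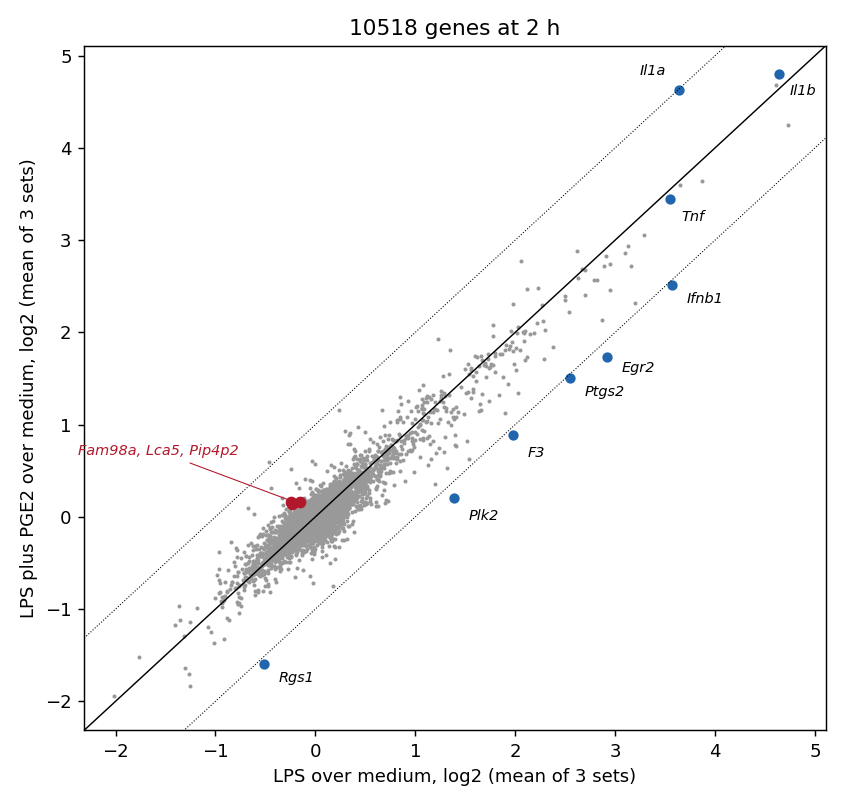
Mean log2 ratio to medium of 10518 genes with LPS plus PGE2 (vertical axis) and with LPS (horizontal axis) at 2 h, each a mean of 3 sets. The solid line marks equal values and the dotted lines a difference of 1 log2 unit. The 3 genes that passed the test (red) lie near 0 on both axes, and the labelled genes in blue, with the widest gaps or the highest ratios, did not pass.

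The 3 genes that rose had small differences, which over the 3 pairs of sets lay between 0.36 and 0.45 in Lca5, between 0.29 and 0.42 in Pip4p2 and between 0.19 and 0.43 in Fam98a. Lca5 encodes lebercilin, a protein of the ciliary base. Its log2 ratios to medium were 0.17, 0.07 and 0.23 with LPS plus PGE2 in sets 1, 2 and 3, against −0.20, −0.32 and −0.22 with LPS. The groups did not overlap, and Lca5 was 0.40 log2 units higher with LPS plus PGE2 (SE 0.06, adjusted p = 0.00258), or 1.32-fold. Pip4p2 encodes a phosphatase of the membrane lipid phosphatidylinositol 4,5-bisphosphate. It was at 0.11, 0.09 and 0.21 with LPS plus PGE2, against −0.18, −0.32 and −0.19 with LPS, again without overlap. Its difference was 0.37 (SE 0.06, adjusted p = 0.00523), or 1.29-fold. Fam98a encodes an RNA-binding protein. It was at 0.18, 0.07 and 0.24 with LPS plus PGE2, against −0.01, −0.25 and −0.19 with LPS. The difference was 0.31 (SE 0.06, adjusted p = 0.0317), or 1.24-fold, and the lowest set with LPS plus PGE2 lay above the highest with LPS. Over all genes, 295 (2.8%) were without overlap upward and 285 (2.71%) downward.

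In all 3 genes the ratio was above 0 in every set with LPS plus PGE2 and below 0 in every set with LPS. PGE2 alone gave ratios above 0 as well, with 0.42, 0.29 and 0.27 for Lca5, 0.47, 0.29 and 0.34 for Pip4p2 and 0.32, 0.24 and 0.27 for Fam98a in sets 1, 2 and 3. These signs are of pair means. Single Fam98a arrays differed in sign within LPS set 1 (−0.11 with the treated RNA in Cy5 and 0.09 in Cy3). They also did within LPS plus PGE2 set 2 (−0.13 and 0.27). The 3 genes followed one another over all 44 dye-swap pairs of the series. Lca5 and Pip4p2 correlated at r = 0.995, Fam98a and Lca5 at 0.976, and Fam98a and Pip4p2 at 0.974. Among the other 10515 genes with any variation, the one most like Lca5 and Pip4p2 was Zfp287 (r = 0.819 and 0.820), and the one most like Fam98a was Rassf1 (r = 0.791). The points of these correlations share arrays, dyes and sets, and each of the 3 genes is measured by 1 probe. Whether the 3 probes share a target, which would make the 3 calls 1 signal, was not tested. They lie on different chromosomes, Lca5 on chromosome 9, Pip4p2 on chromosome 4 and Fam98a on chromosome 17. No gene passed without the pairing of sets, with all arrays centred and scaled, when only the 2 h groups or only the 2 groups compared were fitted, or without set 3, and none of the 3 passed on the arrays with the treated RNA in Cy5 alone. The size of the difference stayed between 0.255 and 0.471 for the 3 genes under all 13 alternatives.

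**Figure D2:**
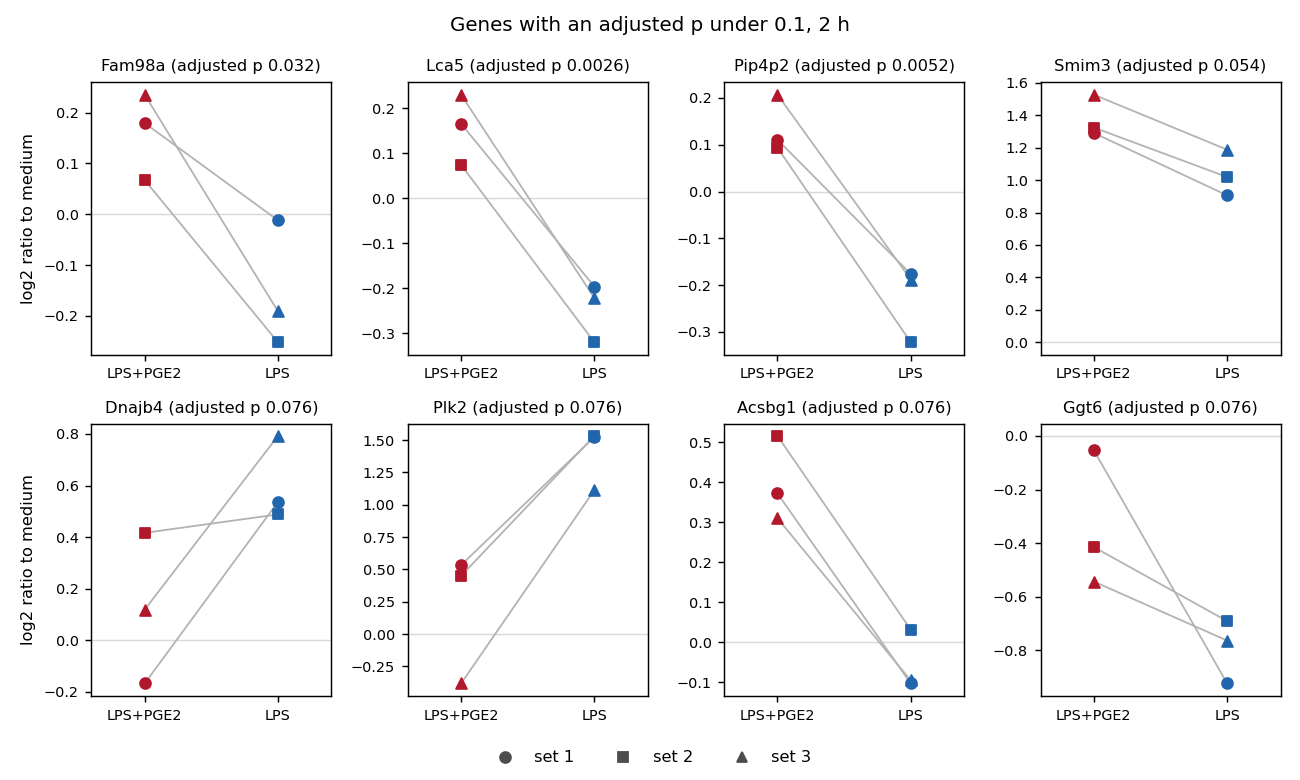
Log2 ratio to medium at 2 h of the 8 genes with an adjusted p under 0.1, with LPS plus PGE2 (left, red) and LPS (right, blue). Each symbol is the mean of a dye-swap pair and grey lines join sets of the same number. In all 8 genes the groups do not overlap, and Plk2 has the widest gap.

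Next in order came 5 genes with an adjusted p between 0.05 and 0.1, named here after their values were seen. Plk2 encodes a polo-like kinase of the immediate early class and had the widest difference of the 5. It was at 0.53, 0.45 and −0.38 with LPS plus PGE2 in sets 1, 2 and 3, against 1.52, 1.53 and 1.11 with LPS, a difference of −1.19 (SE 0.25, 95% interval −1.69 to −0.69, adjusted p = 0.0759). The mean with LPS was more than 1 log2 unit above medium, and that with LPS plus PGE2 was 0.20. Both Plk2 probes ran the same way, at −1.03 and −1.35. PGE2 alone put Plk2 at −1.26, −1.49 and −1.41. Smim3, a small membrane protein, was at 1.29, 1.32 and 1.53 with LPS plus PGE2, against 0.91, 1.02 and 1.19 with LPS (difference 0.34, adjusted p = 0.0539). Acsbg1, which activates long-chain fatty acids, was at 0.37, 0.52 and 0.31 with LPS plus PGE2, against −0.10, 0.03 and −0.10 with LPS (difference 0.46, adjusted p = 0.0759). For both, every set with LPS plus PGE2 lay above every set with LPS. Dnajb4, a co-chaperone of heat shock proteins, was at −0.17, 0.42 and 0.12 with LPS plus PGE2, against 0.54, 0.49 and 0.79 with LPS (difference −0.48, adjusted p = 0.0759). The groups were just apart, and set 2 showed little of this difference. Ggt6, of the gamma-glutamyltransferase family, was at −0.05, −0.41 and −0.54 with LPS plus PGE2, against −0.92, −0.69 and −0.76 with LPS (difference 0.46, adjusted p = 0.0759). It was measured on 4 of the 6 arrays with LPS plus PGE2 and on all 6 with LPS. Without set 1 the Ggt6 difference was 0.25, and with values of 0 taken as missing it was 0.30 (adjusted p = 0.602).

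CREB binds the cyclic AMP response element (CRE), and promoter windows are shown for the gene with the lowest p (Lca5), the gene with the widest gap near the threshold (Plk2) and 2 genes of the PGE2 pathway described below (Rgs2 and Nr4a1). Windows are 300 bases around a gene's start, most of them before it, as given by RefSeq for GRCm38.p6, and 24 of 35 genes looked up had one. The letters searched were TGACGTCA, the full element, which reads the same on both strands, and TGACG or its reverse complement CGTCA, the short element, which also lies within the full one. Matches are in capitals.
Lca5, chr9:83441078-83441377, minus strand: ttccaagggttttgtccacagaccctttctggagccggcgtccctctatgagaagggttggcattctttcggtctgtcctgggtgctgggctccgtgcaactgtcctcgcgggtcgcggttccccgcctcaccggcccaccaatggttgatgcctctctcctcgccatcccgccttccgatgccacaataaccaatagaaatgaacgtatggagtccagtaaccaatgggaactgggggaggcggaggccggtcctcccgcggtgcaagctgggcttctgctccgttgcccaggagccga
Plk2, chr13:110394794-110395093, plus strand: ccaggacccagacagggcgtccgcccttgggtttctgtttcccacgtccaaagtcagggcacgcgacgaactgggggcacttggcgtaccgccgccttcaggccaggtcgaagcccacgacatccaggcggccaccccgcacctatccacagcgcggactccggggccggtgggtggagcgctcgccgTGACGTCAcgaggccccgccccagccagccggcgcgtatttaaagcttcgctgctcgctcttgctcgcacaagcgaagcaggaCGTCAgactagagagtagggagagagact
Rgs2, chr1:144004100-144004399, minus strand: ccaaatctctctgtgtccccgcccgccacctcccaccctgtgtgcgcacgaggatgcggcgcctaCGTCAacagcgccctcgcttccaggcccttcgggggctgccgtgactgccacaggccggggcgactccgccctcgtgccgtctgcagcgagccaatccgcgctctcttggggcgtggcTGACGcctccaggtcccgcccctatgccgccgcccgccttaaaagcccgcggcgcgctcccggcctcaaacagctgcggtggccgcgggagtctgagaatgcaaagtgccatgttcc
Nr4a1, chr15:101266596-101266895, plus strand: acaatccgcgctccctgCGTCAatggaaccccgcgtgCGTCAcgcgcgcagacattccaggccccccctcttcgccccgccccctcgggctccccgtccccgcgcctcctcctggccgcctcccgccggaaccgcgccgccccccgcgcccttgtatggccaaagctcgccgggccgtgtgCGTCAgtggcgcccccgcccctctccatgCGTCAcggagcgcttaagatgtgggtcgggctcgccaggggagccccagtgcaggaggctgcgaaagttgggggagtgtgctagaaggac
The Plk2 window held 1 full element and 1 short element outside it. The windows of Rgs2 and Nr4a1 held 2 and 4 short elements, and those of Lca5 and Fam98a held 0. Among other genes described here, the Nr4a2 window held 4 short elements, and those of Il6, Ptgs2 and Atf3 held 1 each. Dnajb4 windows held 2 and 1, and Egr2 windows held 0 or 2. Of 4 Pde4b windows 1 held 1 short element and 3 held 0. The windows of Ptger2, Ptger4, Cnnm2, Acsbg1, Ggt6, Tnf, Il1b, Il12b, Ifnb1, Csf2, Ccl3 and Cxcl10 held 0. Of all 32851 RefSeq windows, 1.79% held the full element and 20.8% the short element. A match is a description of these letters and not a site of binding.

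Tnf, Il1b, Il1a and Il10 were above medium in every set of both groups, and no cytokine gene gave a call between the groups. Of 24 listed cytokine genes with a probe, 0 passed the test, 5 were higher and 4 lower in all 3 sets, and their median difference was −0.03. The 24 include a gene listed at 0 on all 12 arrays. Over all genes 1333 (12.7%) were higher and 1223 (11.6%) lower in all 3 sets, with a median of 0.00. Tnf, tumour necrosis factor, was at 3.44, 3.16 and 3.74 with LPS plus PGE2, against 3.26, 3.50 and 3.90 with LPS. The groups overlapped, and the difference of −0.11 had a 95% interval of −0.46 to 0.24. Il1b, interleukin 1 beta, was at 4.77, 4.50 and 5.15 with LPS plus PGE2, against 4.65, 4.13 and 5.14 with LPS (95% interval of the difference −0.49 to 0.82). Il10, the anti-inflammatory interleukin, was at 1.75, 2.14 and 2.79 with LPS plus PGE2, against 2.66, 2.15 and 2.81 with LPS. The 2 groups differed by −0.01 over sets 2 and 3, and nearly the whole gap of −0.31 came from set 1. In set 1 with LPS plus PGE2 the 2 arrays were at 1.21 and 2.28. The 2 Il10 probes gave −0.56, with values on 11 of 12 arrays, and −0.06. With values of 0 taken as missing, the Il10 difference was −0.11. Il1a, interleukin 1 alpha, not among the genes chosen by rule, was at 4.71, 4.18 and 4.99 with LPS plus PGE2, against 4.42, 2.82 and 3.69 with LPS. Its difference of 0.99 had the same sign in all sets, with an interval of −0.24 to 2.21 and an adjusted p of 0.959.

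For several strongly induced genes, set 1 with LPS plus PGE2 was low or at 0, and its gap to LPS was the widest of the 3 sets. Il6, interleukin 6, was at 0.48, 1.37 and 3.34 with LPS plus PGE2, against 2.41, 0.67 and 3.29 with LPS. Ifnb1, interferon beta, was at 0.27, 2.87 and 4.41 with LPS plus PGE2, against 2.76, 2.96 and 4.99 with LPS. For Csf2, the macrophage and granulocyte growth factor GM-CSF, the ratios were 0.12, 0.81 and 2.53 with LPS plus PGE2, against 2.14, 0.51 and 2.26 with LPS. In set 1 with LPS plus PGE2 these 3 genes, Csf3 and Egr2 were listed at 0 on 1 of the 2 arrays. Ptgs2 was at 0.00, 2.06 and 2.45 with LPS plus PGE2, against 2.88, 2.13 and 2.64 with LPS, and in set 1 with LPS plus PGE2 it was listed at 0 on both arrays. With sets 2 and 3 only, the differences were 0.38 for Il6, −0.34 for Ifnb1, 0.28 for Csf2 and −0.13 for Ptgs2. Over all 3 sets they were −0.39, −1.05, −0.49 and −1.05, and the lowest adjusted p was 0.926. With values of 0 taken as missing, the differences were −0.23 for Il6, −0.96 for Ifnb1 and −0.45 for Csf2. Csf3 went from −0.42 to 0.12. Set 1 with LPS plus PGE2 then rested on 1 array for these genes, and Ptgs2 could not be fitted so. The 2 Csf3 probes were unlike, at −0.79 with values on 11 arrays and at −0.04 with values on 2. With 1 probe per gene the Csf3 difference was −0.79. The sign of the Csf3 difference thus depended on how zeros and probes were handled, and no direction is given. The part of the unmeasured probes of set 1 was not tested further.

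Chemokine genes gave no call either, with 0 of 18 past the threshold, 1 higher and 3 lower in all 3 sets and a median of −0.01. Ccl5 was at 1.35, 1.56 and 1.80 with LPS plus PGE2, against 1.43, 1.59 and 1.80 with LPS, with an interval of −0.32 to 0.24. These are means of 2 unlike Ccl5 probes. The probe with values on all 12 arrays averaged 3.29 with LPS plus PGE2 and 3.20 with LPS. The other, with values on 5 arrays, averaged −0.15 and 0.02. Cxcl10, an interferon-induced chemokine, was at 3.47, 2.97 and 1.79 with LPS plus PGE2, against 3.52, 3.42 and 1.91 with LPS, and set 3 was the lowest in both groups. Ccl4 was at 3.60, 2.21 and 2.50 with LPS plus PGE2, against 1.64, 2.51 and 2.03 with LPS. Its difference of 0.72 rested on set 1, and its 3 probes gave 1.28, −0.30 and 1.17, the first from 2 arrays. Ccl3 was measured on 3 of 6 arrays with LPS plus PGE2 and on 1 of 6 with LPS, so no direction is given. Il12b, Nos2 and Arg1 stayed near medium, with group means from −0.08 to 0.16 with LPS plus PGE2 and from −0.05 to 0.18 with LPS. For Nos2, 1 of 2 probes was at 0 on all 12 arrays, and the other averaged 0.32 with LPS plus PGE2 and 0.35 with LPS.

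**Figure D3:**
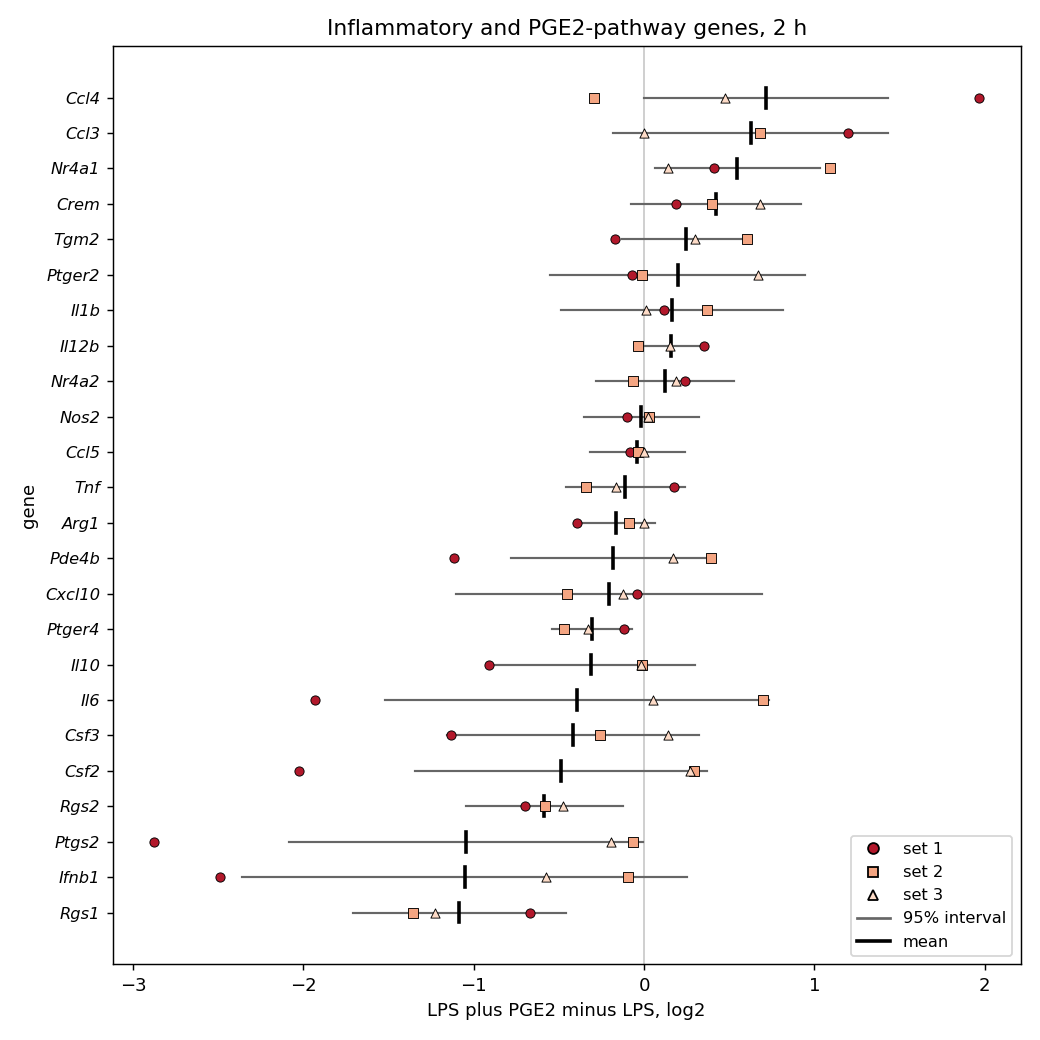
Difference between LPS plus PGE2 and LPS at 2 h (log2) for 24 inflammatory and PGE2-pathway genes. Symbols are the 3 sets, thick ticks their mean and lines the 95% interval of the fit. None of the 24 passed the test, and for Ptgs2, Ifnb1, Il6 and Csf2 set 1 lies far below sets 2 and 3.

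Among genes of the PGE2 receptor pathway, Ptger4, Rgs1 and Rgs2 were lower with LPS plus PGE2 in all 3 sets without passing the test. Ptger4 was at −0.12, −0.83 and −0.44 with LPS plus PGE2, against −0.01, −0.36 and −0.11 with LPS (difference −0.31, 95% interval −0.54 to −0.07, adjusted p = 0.837). The group ranges overlapped. Ptger2 was at 0.40, 0.17 and 2.11 with LPS plus PGE2, against 0.46, 0.18 and 1.44 with LPS, and set 3 was the highest in both groups. Rgs1 and Rgs2 encode proteins that shorten signalling by G protein subunits. Rgs1 was at −0.37, −2.23 and −2.18 with LPS plus PGE2, against 0.30, −0.88 and −0.95 with LPS (difference −1.08, interval −1.71 to −0.46, adjusted p = 0.512). Every set was lower than its partner, by 0.67 to 1.36, but the sets themselves spread so far that the groups overlapped. Both Rgs1 probes agreed, at −1.04 and −1.13. Rgs2 was at −1.39, −1.94 and −2.18 with LPS plus PGE2, against −0.69, −1.36 and −1.70 with LPS (difference −0.58, adjusted p = 0.837). Its 2 probes disagreed, at 0.15 and −1.32. Of 9 such regulators, 0 passed, 0 were higher and 3 lower in all sets, with a median of −0.02.

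Targets of cyclic AMP and CREB showed no common direction. Of 25 with a probe, 0 passed, 6 were higher and 6 lower in all 3 sets, and the median was −0.04. Nr4a1, an orphan nuclear receptor induced by cyclic AMP, was at 0.00, 2.01 and 0.64 with LPS plus PGE2, against −0.41, 0.92 and 0.50 with LPS (difference 0.55, adjusted p = 0.914). Crem, a cyclic AMP-responsive repressor, was at 0.00, 0.43 and 0.74 with LPS plus PGE2, against −0.19, 0.03 and 0.06 with LPS (difference 0.42, adjusted p = 0.955). Both genes were listed at 0 on the 2 arrays of set 1 with LPS plus PGE2. Pde4b, a phosphodiesterase that degrades cyclic AMP, was at 1.96, 3.24 and 3.62 with LPS plus PGE2, against 3.08, 2.84 and 3.46 with LPS, and its 2 probes differed by 0.20 and −0.57. Tgm2, transglutaminase 2, was at 0.94, 1.97 and 1.66 with LPS plus PGE2, against 1.11, 1.36 and 1.36 with LPS (difference 0.25, probes at 0.50 and −0.01). Nr4a2, a relative of Nr4a1, differed by 0.12, with probes at 0.32 and −0.08. Of 30 cyclic AMP signalling components, including receptors, cyclases and phosphodiesterases, 0 passed, 2 were higher and 5 lower in all sets.

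Immediate early genes were the list with the lowest median, −0.21 (−0.20 over sets 2 and 3), beside 0.00 for all genes. Of 27 with a probe, 0 passed the test, 15 were lower and 2 higher in all 3 sets. The 27 include a gene listed at 0 on all 12 arrays, which could not be higher or lower. Over all genes 11.6% were lower and 12.7% higher in all 3 sets. Egr2, a zinc finger transcription factor, was at −0.04, 2.88 and 2.34 with LPS plus PGE2, against 2.38, 3.28 and 3.12 with LPS, and set 1 was the outermost (adjusted p = 0.631). Egr1 was at 0.67, 3.36 and 2.38 with LPS plus PGE2, against 1.91, 3.80 and 2.90 with LPS (adjusted p = 0.941). Atf3, a stress-induced repressor, was at 0.34, 0.49 and 0.22 with LPS plus PGE2, against 0.99, 1.30 and 1.32 with LPS. Its groups did not overlap, and the difference was −0.85 (interval −1.33 to −0.37, adjusted p = 0.487). PGE2 alone put Atf3 at −1.37, −1.66 and −1.90. Fos differed by −0.11 and Fosl1 by 0.12, each with sets on both sides of 0. Jun had a difference of 0.40, and it was listed at 0 on both arrays of set 1 with LPS plus PGE2.

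**Figure D4:**
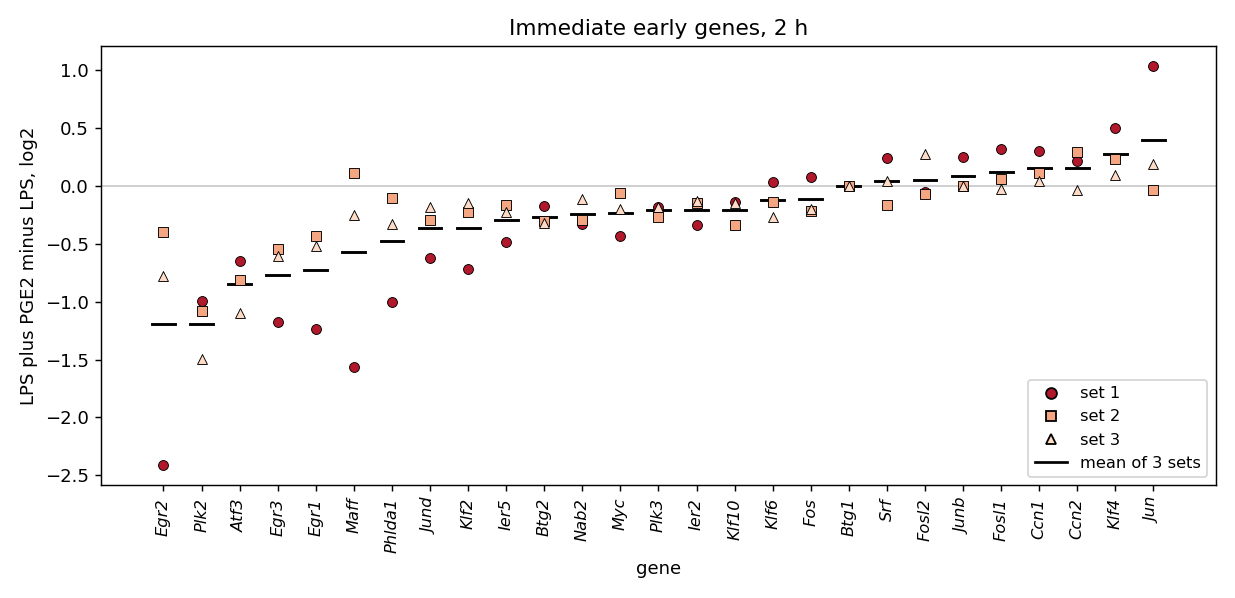
Difference between LPS plus PGE2 and LPS at 2 h (log2) for 27 immediate early genes in order of their mean. Symbols are sets 1 to 3 and bars their means. Means run from −1.19 (Egr2) to 0.40 (Jun), and 15 genes are below 0 in all 3 sets.

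MAP kinase feedback and mRNA decay genes had a median of −0.13, with 0 of 15 past the threshold, 2 higher and 7 lower in all 3 sets. The shares over all genes were 12.7% higher and 11.6% lower. Dusp1, a phosphatase of MAP kinases, was at 0.65, 2.19 and 2.69 with LPS plus PGE2, against 1.54, 2.33 and 3.28 with LPS. Zfp36, which speeds the decay of cytokine mRNAs, was at 1.25, 1.49 and 1.24 with LPS plus PGE2, against 1.40, 1.94 and 1.65 with LPS. Each was lower with LPS plus PGE2 in every pair of sets, and neither passed the test. Interferon-stimulated genes had a median of −0.10, with 2 of 31 higher and 11 lower in all 3 sets. Their median was −0.35 in set 1, −0.02 in set 2 and −0.05 in set 3. Irf8, a transcription factor of macrophage development, was at −0.20, −0.29 and −0.61 with LPS plus PGE2, against 0.31, 0.01 and −0.11 with LPS, without overlap (difference −0.44, adjusted p = 0.435). NF-kB subunits and feedback genes had a median of −0.08, with 4 of 19 higher and 4 lower in all sets.

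Lists for the macrophage state were near 0. Alternative activation genes had a median of 0.02 (6 of 20 higher and 3 lower in all sets) and macrophage surface receptors one of 0.04 (9 of 35 higher and 4 lower). Genes of arginine, nitric oxide and itaconate metabolism had a median of 0.07, with 4 of 8 higher and 1 lower in all sets. Adhesion and matrix genes had 6 of 25 higher and 1 lower in all sets, with a median of −0.02. The other lists (eicosanoid enzymes, antigen presentation, apoptosis and survival, glycolysis and hypoxia, oxidative stress, lipid efflux, both cell cycle lists and reference genes) had medians from −0.07 to 0.02. No member of any list passed the test.

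Differences of at least 1 log2 unit were found in 7 genes, named here for their size after the values were seen, and none passed the test. Among them, 6 were lower with LPS plus PGE2: Plk2, Egr2, Rgs1, Ptgs2 and Ifnb1, given above, and F3, tissue factor, the starter of coagulation. F3 was at 0.90, 0.62 and 1.15 with LPS plus PGE2, against 2.87, 1.87 and 1.19 with LPS (difference −1.09, adjusted p = 0.842), and its gap was widest in set 1. The gene on the other side was Sprr2f, at 1.58, 0.29 and −0.08 with LPS plus PGE2, against −1.46, 1.22 and −1.13 with LPS, whose sets did not share a sign. Of the 6 lower genes, Plk2 and F3 had groups that did not overlap, and F3 by 0.04 only.

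Genes raised by LPS were next taken from the 1 h and 4 h arrays, which hold none of the 12 arrays compared. LPS raised 94 genes (0.894%) at least 2-fold at an adjusted p under 0.05 at 1 h and 374 (3.56%) at 4 h. Of the 59 raised at both times, 25 were lower and 8 higher with LPS plus PGE2 in all 3 sets at 2 h, and their median difference was −0.11. Over sets 2 and 3 that median was −0.04. Set by set, the median ratio to medium of these 59 genes was 1.78, 2.06 and 2.34 with LPS plus PGE2, against 2.09, 2.08 and 2.27 with LPS. Set 1 with LPS plus PGE2 was the lowest of the 6. For the 315 genes raised at 4 h only, 49 were higher and 65 lower in all sets, with a median of −0.04. For the 35 raised at 1 h only, 2 were higher and 11 lower in all sets. Their median was −0.12 over the 3 sets, and −0.06, −0.03 and −0.15 in sets 1, 2 and 3, the widest in set 3. Shares over all genes were 12.7% higher and 11.6% lower in all 3 sets.

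Genes that PGE2 changed by itself at 2 h were taken from the 6 arrays of PGE2 alone. The 2 arrays of a set correlated across probes at −0.588, −0.116 and −0.101 there, so each ratio of PGE2 alone rests on the mean of both dyes. PGE2 alone raised 98 genes (0.932%) and lowered 82 (0.78%) at an adjusted p under 0.05. Among the 98 raised genes, 51 were higher and 6 lower with LPS plus PGE2 than with LPS in all 3 sets, and the 98 include Lca5, Pip4p2 and Fam98a. Their median was 0.13 in the comparison with LPS, against 0.38 with PGE2 alone. Among the 82 lowered genes, 46 were lower and 4 higher in all 3 sets, with medians of −0.12 in the comparison with LPS, against −0.35 for PGE2 alone. Set by set, the medians in the comparison with LPS were 0.12, 0.15 and 0.12 for raised genes and −0.08, −0.09 and −0.16 for lowered ones. The counts over all genes were 12.7% higher and 11.6% lower. The labels do not say whether these arrays shared 1 preparation of medium RNA, so the counts are set beside each other without a test. Edil3, an integrin ligand, was at 0.34, 0.39 and 0.20 with LPS plus PGE2, against −0.57, −0.31 and −0.45 with LPS, and at 2.04, 0.40 and 2.60 with PGE2 alone. Ctla2b, of the cysteine protease inhibitor family, was at 0.67, 0.43 and 0.47 with LPS plus PGE2, against −0.25, −0.18 and −0.32 with LPS, and at 0.89, 0.90 and 0.98 with PGE2 alone. In neither gene did the groups with and without PGE2 overlap, though neither passed the test (adjusted p = 0.856 for Edil3 and 0.435 for Ctla2b).

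ISO acts on beta-adrenergic receptors, which raise cyclic AMP as EP2 and EP4 do, and the labels give the same LPS dose for both combinations. Between LPS plus PGE2 and LPS plus ISO, 0 of 10518 genes (0.0%) passed an adjusted p of 0.05 in limma, and 356 were at an unadjusted p under 0.05. No alternative gave a call. Plk2 was at 0.53, 0.45 and −0.38 with LPS plus PGE2, against 0.01, −0.05 and −0.62 with LPS plus ISO, a difference of 0.42 with a 95% interval of −0.08 to 0.93. For Lca5 the difference was −0.06 (interval −0.18 to 0.06). Tnf differed by 0.17 (−0.18 to 0.52) and Ptger4 by 0.06 (−0.18 to 0.30). Il6 had a wider range, with 0.48, 1.37 and 3.34 with LPS plus PGE2, against 3.51, 1.32 and 3.48 with LPS plus ISO. A missed threshold does not show that the 2 ligands act alike, and they differ in dose. The labels name lipid binding protein for neither combination, unlike for LPS alone. A difference from LPS that both combinations share can therefore not be told apart from an effect of this protein.

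The departure from additivity was tested as the difference of LPS plus PGE2 from LPS minus the ratio of PGE2 alone. Lipid binding protein is labelled for LPS alone only. The departure can therefore not tell a changed effect of PGE2 from an effect of this protein. A departure passed in 2 of 10518 genes (0.019%), and 553 genes were at an unadjusted p under 0.05. For Ptger4, LPS plus PGE2 differed from LPS by −0.12, −0.47 and −0.33, against −0.80, −1.28 and −1.19 with PGE2 alone. The departure was 0.78, SE 0.14, adjusted p = 0.0428. Every paired difference with LPS lay above every set with PGE2 alone. For Cnnm2, a magnesium transporter family member, LPS plus PGE2 differed from LPS by 0.24, 0.03 and 0.03, against 0.57, 0.59 and 0.80 with PGE2 alone. Its departure was −0.55, SE 0.09, adjusted p = 0.0222. The 2 Cnnm2 probes averaged 0.24 and 1.06 with PGE2 alone, so most of its value came from 1 probe. Plk2 and Nr4a1 departed by 0.20 and 0.08, with adjusted p of 1 for both. For Tgm2, with a difference of 0.25 ± 0.39 from LPS, against 1.39 ± 0.37 with PGE2 alone (mean ± SD, n = 3 each), the departure of −1.15 had an adjusted p of 0.0847. The 2 Tgm2 probes differed from LPS by 0.50 and −0.01, and with 1 probe per gene the Tgm2 departure passed. The Ptger4 and Cnnm2 calls were both lost without the pairing of sets, with only the 2 h groups fitted, and without set 2 or set 3. The Ptger4 call was also lost without set 1, with sets paired over all times and on the arrays with the treated RNA in Cy5 alone, and the Cnnm2 call with 1 probe per gene.

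The same difference was formed at 1 and 4 h from arrays of those times, with 3 sets per group. An F test of whether it differed between 1, 2 and 4 h passed in 0 of 10518 genes (0.0%) in limma, with 687 at an unadjusted p under 0.05. Lca5 differed by 0.10 ± 0.10 (1 h), 0.40 ± 0.05 (2 h) and 0.29 ± 0.11 (4 h) (mean ± SD of 3 paired sets). Pip4p2 had 0.08 ± 0.03 (1 h), 0.37 ± 0.07 (2 h) and 0.31 ± 0.14 (4 h), and Fam98a had 0.07 ± 0.07 (1 h), 0.31 ± 0.12 (2 h) and 0.26 ± 0.12 (4 h). Smim3 had 0.37 ± 0.11 (1 h), 0.34 ± 0.04 (2 h) and 0.23 ± 0.09 (4 h). These 4 genes were higher with LPS plus PGE2 in each of the 9 paired sets. They were named for their p at 2 h, as was Plk2, so for these genes only the pairs at 1 and 4 h lie outside that choice. The share of all genes with 1 sign in all 9 pairs is not given here. Plk2 had −1.47 ± 0.55 (1 h), −1.19 ± 0.27 (2 h) and −1.08 ± 0.46 (4 h), and Rgs1 had −1.17 ± 0.60 (1 h), −1.08 ± 0.37 (2 h) and −1.20 ± 0.29 (4 h), both lower in all 9 paired sets. Nr4a1 had 1.97 ± 0.22 (1 h), 0.55 ± 0.49 (2 h) and 1.01 ± 0.20 (4 h), and its 2 h value includes the set at 0 described above. Ptger4 had −0.56 ± 0.15 (1 h), −0.31 ± 0.18 (2 h) and −0.42 ± 0.10 (4 h). The F test gave adjusted p of 0.61 for Lca5, 0.494 for Nr4a1, 0.941 for Plk2 and 0.887 for Ptger4, so no order of times is given.

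**Figure D5:**
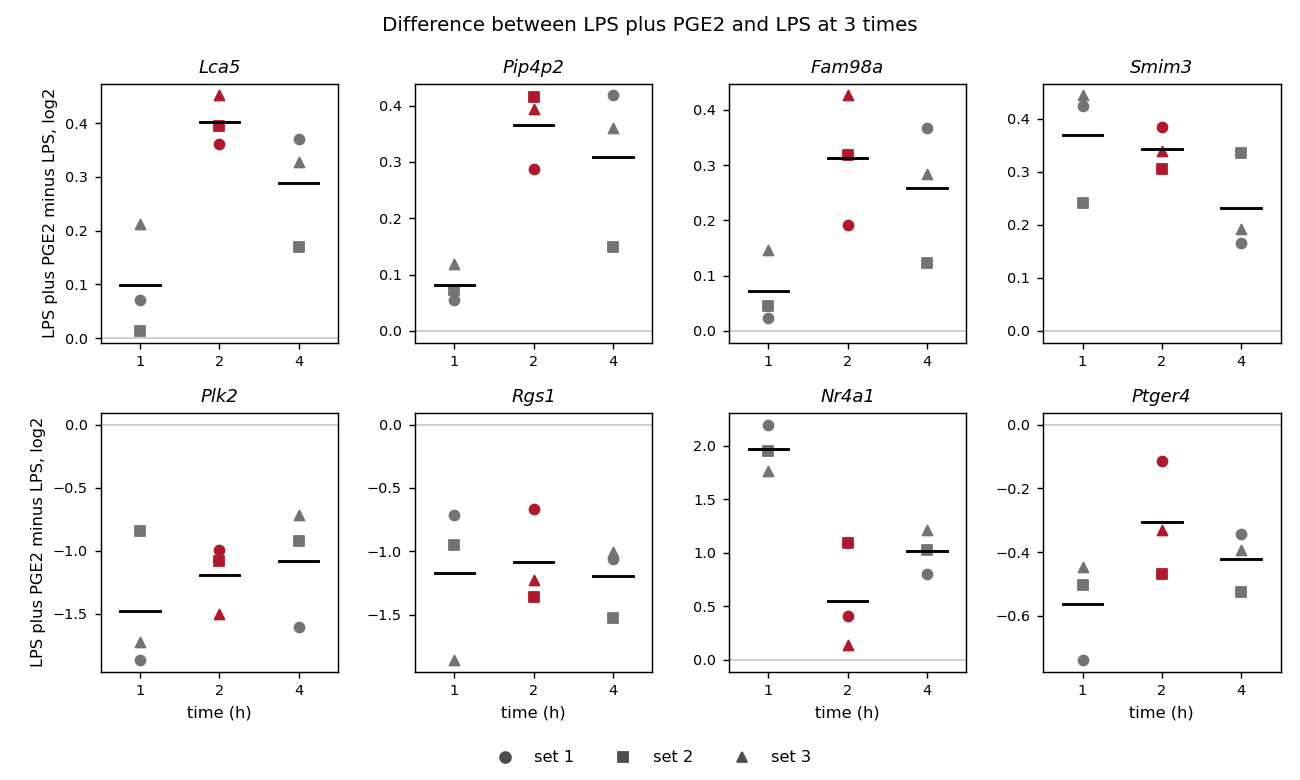
Difference between LPS plus PGE2 and LPS (log2) at 1, 2 and 4 h for 8 genes, with the 2 h sets in red. Symbols are sets 1 to 3 and bars their means. Vertical scales differ between panels. All points of Lca5, Pip4p2, Fam98a and Smim3 lie above 0, and all points of Plk2, Rgs1 and Ptger4 below 0. Lca5, Pip4p2, Fam98a, Smim3 and Plk2 were named for their p at 2 h.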

How the data were processed

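Each array compared RNA of treated RAW 264.7 cells with RNA of cells in medium on 2-colour custom Agilent oligonucleotide arrays, per the series design text. The authors' processed log2 ratios came as a single table of probes by arrays, whose scale, centring and direction were unstated. Image analysis and normalization were not recorded in the labels or in the table. The log base was inferred from the largest absolute value, 6.64, which is log2 of 100, and the median of each column was 0. The direction was read as Cy5 over Cy3, turned to treated over medium by the dye labels, and is called likely, since Tnf and Il1b, which LPS is known to induce, were at 2.66 or higher on all 12 arrays. A value of exactly 0 was kept as a value and is called not measured. Signal strengths are unknown here. The number of arrays limits precision.

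The 2 arrays of a dye-swap pair were averaged to 1 replicate. Of 16281 probes, 13790 were in the platform annotation, 13738 with 1 symbol, 52 with several and 2491 unlisted. Symbols were updated through RefSeq (GRCm38.p6), in which 13694 were found. The 13260 probes with 1 gene and any value were averaged to 10518 genes. All 44 pair means were fitted in limma 3.58.1 (R 4.3.3) with 15 group means and a set block within each time, 23 residual and 3.06 prior degrees of freedom, without trend. Numbers were taken to pair the samples because every same-number correlation of deviations between the 2 groups was above 0.1. Adjusted p is Benjamini-Hochberg over all genes, two-sided for single contrasts, with a threshold of 0.05. Intervals are 95% intervals of the fit. The fit was tested on simulated data first. Figures were drawn with matplotlib 3.10.9 in Python 3.11.15.

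The rule named the 15 highest and 15 lowest genes past the threshold with 1 sign in 3 sets and a value on at least 10 of 12 arrays, list members past the threshold, and 24 genes whatever their result. For the other tests it named the 5 highest and 5 lowest, and for the F test the 8 of largest range. The comparison, the 24 lists and the genes were chosen with earlier results of these data known. List members that did not pass are examples named after their values were seen. Alternatives changed the block, the groups fitted, zeros, probes, scaling, dye orientation and sets.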

Additional observations from a re-analysis of the deposited data

Results flagged for a closer look

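For 2 genes the difference of LPS plus PGE2 from LPS departed from the ratio of PGE2 alone at 2 h. The departure itself was tested in limma with adjustment over 10518 genes. Lipid binding protein is labelled for LPS alone only, so effects of PGE2 and of this protein cannot be told apart in it. Ptger4, the PGE2 receptor EP4, had a departure of 0.78 log2 units (SE 0.14, adjusted p = 0.0428). Its difference was nearer to 0 over LPS than over medium in 3 of 3 sets. The Ptger4 call was lost without set 1, 2 or 3 (adjusted p = 0.175, 0.280 and 0.291 in limma). Cnnm2 had a departure of −0.55 log2 units (SE 0.09, adjusted p = 0.0222), with a smaller difference over LPS than over medium in 3 of 3 sets. With 1 probe per gene, its departure was −0.26 and the call was lost (adjusted p = 0.925). The Cnnm2 call was also lost without set 2 or set 3.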

How the results depend on the processing

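The count of 3 genes for LPS plus PGE2 against LPS became 0 with no replicate block, 0 with a replicate block by set number over all times, 0 with only the 2 h groups, 0 with only the 2 groups compared and 0 with each array centred and scaled, and it was 0 to 3 with 1 set left out. Without set 3 it was 0, and without set 2 it was 3, of which 1 (Lca5) was shared. Only arrays with the treated RNA in Cy5 gave 3 genes, none of them the same (Marcks, Plk2 and Smim3). With the treated RNA in Cy3, 2 genes were called, both among the 3. The other alternatives gave 3 or 4. The additivity count of 2 became 0 with no replicate block, 1 with a replicate block by set number over all times, 0 with only the 2 h groups, 52 with each array centred and scaled, 22 in Cy5 and 108 in Cy3, and 0 to 1 with 1 set left out. Against LPS plus ISO the count was 0 throughout, and the F test over times gave 0 to 1 with 1 set left out and 0 otherwise. Of 447 values for 33 named genes, 387 kept their side of the threshold. These moved by less than the spread between sets or kept their call. Another 20 also kept their side of the threshold, without a call, but moved further. A call was gained in 4 and lost in 36, and no value of a called gene changed sign. Most of the 447 belong to results without a call to lose. All 36 lost calls were those of Lca5, Pip4p2, Fam98a and the departures of Ptger4 and Cnnm2. Of 13 alternatives, Lca5 kept its call in 6, Pip4p2 in 5 and Fam98a in 4. The cause of these changes was not tested. The 1987 probes outside the annotation gave 0 calls in limma, with 120 at an unadjusted p under 0.05. Exact zeros, 3 sets and unknown signal limit what could be detected.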
